A study of Mus musculus with 8 samples.

Results

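Transcript levels were examined in 4 of the 8 liver RNA libraries of a mouse study of nonalcoholic steatohepatitis (NASH), namely the 4 whose titles name the liver, eGFP and NASH. These are the control livers of that study. They come from mice of the strain C57BL/6. Per the series design, the diet ran for 7 weeks before an injection of AAV-TBG-eGFP and for 9 weeks after it, and the labels give 16 weeks in all. AAV is an adeno-associated virus used to carry a gene into cells. TBG is a promoter that is active mainly in hepatocytes, and eGFP is a fluorescent protein used as an inert cargo. The diet, the virus, the promoter and the cargo are shared by all 4 livers, so no level given here can be set down to any of them. No healthy liver, and none of the livers that received AAV-TBG-Lpcat3, was set beside them. The labels give neither sex nor age. Each library has a number from 1 to 4 and a code. The code number is 1290 for replicates 1 and 2, 1317 for replicate 3 and 1345 for replicate 4. With their letters the codes are 1290L, 1290N, 1317N and 1345N, so all 4 differ. No label says that the libraries came from separate animals, so the spread between them may be partly technical.

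Hepatocytes supply the bulk of liver RNA. They make albumin and other plasma proteins, package fat into lipoproteins, and run the metabolism of fatty acids, amino acids, bile acids and drugs. Their work is divided along the blood flow: hepatocytes near the portal vein favour urea synthesis and gluconeogenesis, and those near the central vein favour glutamine synthesis and cytochrome P450 reactions. In steatohepatitis, stored fat is accompanied by macrophages, activated stellate cells and extracellular matrix. Several groups of hepatocyte genes are also known to follow feeding, the circadian clock or growth hormone.

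Library totals ran from 23501191 to 25651874 counts over 40838 gene rows. In each library 23818 to 24668 rows had a count, and 13183 rows were at 0 in all 4. Each level is in CPM, a count divided by its TMM-scaled library total on a common scale, TMM being a scaling that discounts genes that stand apart between libraries. A gene was called expressed at a mean of at least 5 CPM over the 4 libraries. This gave 10947 genes, of which 10045 were protein-coding and 553 long noncoding, and together they held 98.7% of all counts. Values are listed in the order of replicates 1, 2, 3 and 4. TMM factors were 1.04, 0.985, 1.08 and 0.901. Scaling by library totals instead shifted every log2 level by 0.06, -0.02, 0.11 and -0.15, which changes the order of libraries for genes of small spread, and such changes of order are stated beside the result. Lpcat3, a phospholipid-remodelling enzyme and the cargo given to the livers not used here, had 165, 154, 137 and 182 CPM in these control livers. The 4 Y-linked genes on the list were expressed in all 4 libraries, Ddx3y at 71.4, 77.1, 67.1 and 83.1 CPM, while Xist, the X-inactivation RNA, had 0.286, 2.73, 0.614 and 2.12 CPM.

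The most counted gene was Scd1, which encodes stearoyl-CoA desaturase, the enzyme that makes monounsaturated fatty acids. Scd1 took 6.67%, 6.98%, 5.52% and 5.96% of the counts, a mean of 6.28% ± 0.662 (SD, n = 4), and held the top rank in every library. Albumin (Alb), the main plasma protein, was at rank 2 in every library with 3.79%, 4.33%, 3.2% and 4.61%, a mean of 3.98% ± 0.621. Apob, the structural protein of very-low-density lipoprotein, was at rank 3 in every library with 2.37%, 2.28%, 2.42% and 2.07%. These 3 ranks were the same in all 4 libraries, although the SDs of the Scd1 and Alb shares exceeded that of Apob. The next places went to transferrin (Trf, 1.09% ± 0.054), the 7SL RNA genes Rn7s2 and Rn7s1, apolipoprotein E (Apoe, 0.82% ± 0.0247), the 7SK RNA gene Rn7sk and the selenium carrier Selenop. Rn7s1 and Rn7s2 are near-identical copies with equal mean shares of 1.09% ± 0.0528, so how reads were divided between them is uncertain. The 20 leading genes together held 24.0% of the counts.

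**Figure D1:**
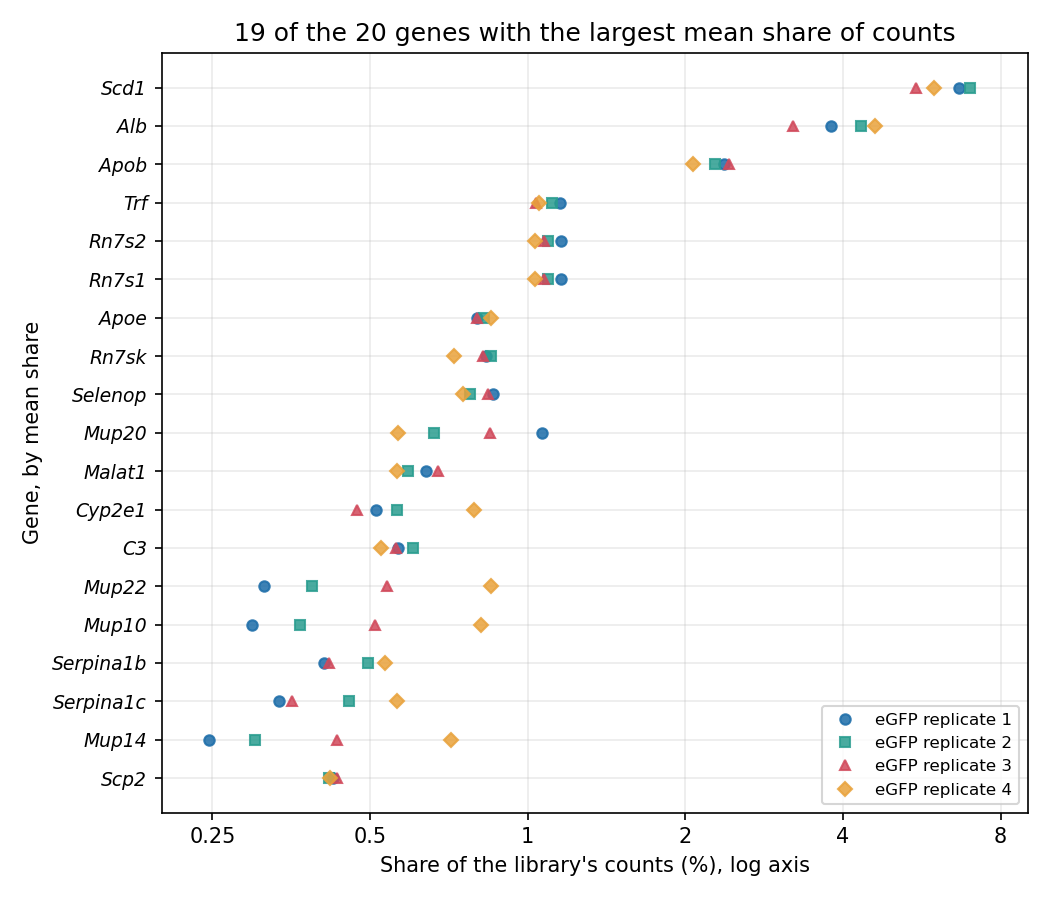
Share of each library's counts (x axis, %, log scale) for 19 of the 20 genes with the largest mean share (y axis), 1 marker per library. Scd1, Alb and Apob keep ranks 1 to 3 in all 4 libraries, while Mup22, Mup10 and Mup14 are spread widely with replicate 4 at the right.

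Below rank 3 the order varied between livers. Mup20, a major urinary protein that acts as a male pheromone, took 1.07%, 0.662%, 0.847% and 0.566% and ranked 7, 10, 7 and 16. Mup22 took 0.314%, 0.387%, 0.538% and 0.851% and ranked 24, 22, 13 and 8. Mup20 was highest in replicate 1 and lowest in replicate 4, Mup22 the reverse, under TMM and under library totals alike. Cyp2e1, a pericentral P450 that oxidises ethanol, took 0.514%, 0.563%, 0.471% and 0.79%, with replicate 4 highest. Complement C3 took 0.565%, 0.603%, 0.56% and 0.525%. By share of counts, Scp2, a sterol carrier protein, was among the steadiest of the leading genes with 0.424%, 0.418%, 0.433% and 0.419%. Under TMM, Scp2 had 4077, 4237, 4001 and 4644 CPM, highest in replicate 4. Its SD on the log2 scale was then 0.096, against 0.018 for Apob.

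Counts favour long transcripts, so ranks were also taken per length, as TPM (counts per kilobase of exon, scaled to a common sum), over protein-coding genes with a known exon length. On that scale the first places were exchanged. Alb stood first in all 4 libraries with 53031 ± 7026 TPM (SD, n = 4), and Scd1 at rank 2 in all 4 with 35369.9 ± 4630.1 TPM. Apob, whose transcript is long, left the leading 15, of which 6 were major urinary proteins. Among the genes that entered it were Fabp1, the liver fatty acid binding protein, with 13605 ± 1548 TPM, and the lipoprotein components Apoc1 with 11742 ± 955 TPM and Apoa2 with 9464 ± 869 TPM. Apoe, which was in the leading 15 on both scales, had 12106 ± 301 TPM. Mup20 had 23146 ± 7190.3 TPM, at rank 3 in replicates 1, 2 and 3 and at rank 8 in replicate 4. Mup22 had 16242 ± 6554 TPM and ranked 9, 6, 4 and 3. The SD of Mup22 was 6554 TPM against 301 TPM for Apoe, at means of 16242 and 12106 TPM. Mup20 stood above Mup22 in replicates 1, 2 and 3 and below it in replicate 4, while Mup22 stood above Mup10 in all 4. The order of means below rank 2 thus need not hold in each library.

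Counts were concentrated in few genes. By mean share, 2 genes held 10% of the counts, 23 held 25%, 266 held 50%, 1818 held 75% and 4787 held 90%. In single libraries, 50% of the counts were held by 298, 249, 334 and 192 genes. Replicate 4 was therefore the most concentrated library and replicate 3 the least. By counts per kilobase, 108 genes held 50%.

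Protein-coding genes took 92.6% ± 0.407 of the counts (SD, n = 4). Long noncoding RNA took 2.21% ± 0.160, the 7SL genes 2.18% ± 0.106 and small nuclear RNA 1.31% ± 0.133. Pseudogenes took 0.564%, transfer RNA of the mitochondrial genome 0.361%, RNase P and MRP RNA 0.20%, small nucleolar RNA 0.0471% and microRNA genes 0.00803%. Rows of ribosomal RNA took 0.00424%, nearly all of it in the mitochondrial genes mt-Rnr2 (0.00256%) and mt-Rnr1 (0.00166%). Only 3 of the 64 ribosomal RNA rows had a count, so this share does not measure what depletion left. Rows with no entry in the gene table took 0.491%. Mitochondrially encoded mRNAs were not analysed here. Counting error alone leaves these shares a 95% Wilson interval of at most 0.0195 percentage points to either side within a library, and the spread between libraries was larger than that for the classes above 1%.

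Among noncoding genes, Malat1, a nuclear RNA of speckles, had 6146, 5999.8, 6239.8 and 6238 CPM, an SD of only 0.027 on the log2 scale. This steadiness depends on the TMM scaling. As a share of library totals Malat1 took 0.64%, 0.591%, 0.675% and 0.562%, with replicate 4 lowest. Neat1, the scaffold of nuclear paraspeckles, had 1139, 1896, 2272 and 1830.3 CPM and an SD of 0.43, with replicate 1 the lowest. Kcnq1ot1, an imprinted antisense transcript, had 218, 217, 238 and 193 CPM. Rn7sk, a regulator of transcription elongation, had 7984, 8626, 7605 and 8029 CPM. The catalytic RNA of RNase P, Rpph1, had 1331, 1291, 1226 and 1090.2 CPM, and that of RNase MRP, Rmrp, 807, 845, 696 and 671 CPM. Replicate 4 was lowest for both of these RNAs. Snord104, a small nucleolar RNA, had 20.8, 24.5, 6.03 and 5.41 CPM, with replicates 1 and 2 above replicates 3 and 4. Snord104 and other small RNAs lie inside or near other genes, and reads of overlapping genes cannot be assigned with certainty here.

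Secreted plasma and urinary proteins, taken as 144 rows of albumin, apolipoproteins, serpins, major urinary proteins and other plasma proteins, took 22.2% ± 2.38 of the counts. The share was 20.3%, 21.6%, 21.1% and 25.7%, with replicate 4 apart from the other 3. Plasma proteins such as transferrin, fibrinogen and C3 took 7.08% ± 0.209, apolipoproteins 4.30% ± 0.199 and serpins 2.30% ± 0.396. Major urinary proteins, lipocalins that carry pheromones and are secreted by the liver under growth hormone control, took 4.52% ± 1.93. Their share was 3.17%, 3.21%, 4.44% and 7.27%. No other class above 1% spanned as wide a ratio, 2.29 between the highest and the lowest library. Cytochromes P450, the haem enzymes of drug and lipid oxidation, took 1.89% ± 0.343, with 1.78%, 2.0%, 1.49% and 2.30%.

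**Figure D2:**
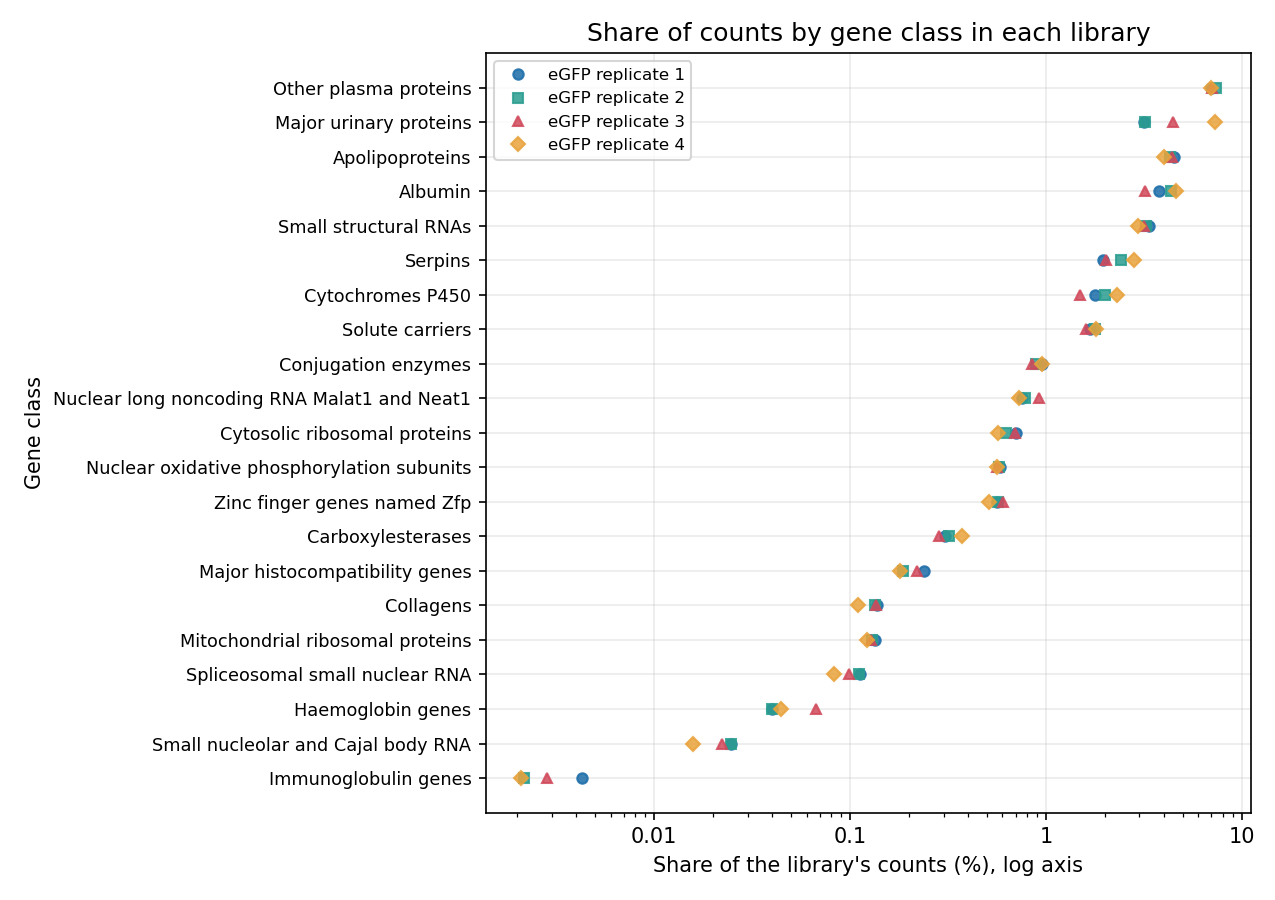
Share of each library's counts (x axis, %, log scale) for 21 gene classes (y axis), 1 marker per library. Major urinary proteins run from 3.17% to 7.27%, while nuclear oxidative phosphorylation subunits stay between 0.561% and 0.581%.

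Smaller classes ranged from steady to library-specific. Nuclear oxidative phosphorylation subunits, parts of the respiratory chain encoded in the nucleus, took 0.581%, 0.579%, 0.561% and 0.561%. Cytosolic ribosomal proteins took 0.70%, 0.626%, 0.693% and 0.569%. Collagens took 0.137%, 0.134%, 0.135% and 0.109%, with replicate 4 the lowest. Major histocompatibility genes took 0.238%, 0.186%, 0.219% and 0.179%. Haemoglobin genes, which come from red cells and their precursors, took 0.0399%, 0.0400%, 0.0669% and 0.0441%, with replicate 3 apart. Immunoglobulin genes took 0.00284% ± 0.00100.

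The major urinary proteins were read as a family of 22 rows, 19 of them expressed. Of these 19, 18 were highest in replicate 4 and 17 lowest in replicate 1, under TMM and under library totals alike. Mup1 had 508, 627, 952 and 3354 CPM, Mup7 788, 1017, 1402 and 4121 CPM and Mup3 1521, 1745, 1537 and 3834 CPM. Replicate 4 exceeded each of the other 3 libraries for all of these. Mup20 was the exception with 10252, 6713, 7826 and 6278 CPM, highest in replicate 1. The median SD over the 19 was 0.84 on the log2 scale, from 0.31 for Mup20 to 1.22 for Mup1, and 18 had an SD above 0.5. Without replicate 4 the median was 0.38 and 0 of 19 had an SD above 0.5. The median over all expressed genes in those 3 libraries was 0.134, so part of the spread of this family, but not all of it, came with replicate 4. Most of these genes are near-identical copies in 1 cluster, the counting program is not given in the sources used here, and so the members are not separate measurements and the division of reads among them is uncertain. Mup20 is divergent in sequence from the others.

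The promoters of 2 members with an entry, Mup3 and Mup21, are shown so that a reader can see how alike these 2 windows are. Neither the promoters of the other members nor the transcripts were compared. Each is the RefSeq window of 300 bases on GRCm38.p6, minus strand, from 250 bases before to 50 bases after the annotated start, with TATATAA in capitals.
Mup3 chr4:62087268-62087567: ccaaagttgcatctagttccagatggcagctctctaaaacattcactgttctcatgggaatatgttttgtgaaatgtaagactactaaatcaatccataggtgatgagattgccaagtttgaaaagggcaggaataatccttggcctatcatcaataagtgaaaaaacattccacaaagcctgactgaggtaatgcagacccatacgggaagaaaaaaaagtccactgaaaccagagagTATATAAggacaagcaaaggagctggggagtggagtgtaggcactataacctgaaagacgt
Mup21 chr4:62150792-62151091: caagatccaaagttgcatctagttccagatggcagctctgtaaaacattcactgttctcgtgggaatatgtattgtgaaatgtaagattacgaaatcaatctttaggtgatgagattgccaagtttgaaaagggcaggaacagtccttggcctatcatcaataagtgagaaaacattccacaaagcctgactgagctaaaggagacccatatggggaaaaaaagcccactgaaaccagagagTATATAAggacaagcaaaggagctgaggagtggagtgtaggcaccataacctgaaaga
Over 294 aligned bases 276 were identical, which is 93.9%. TATATAA, searched on both strands, stood in 3.24% of all 32851 windows. Mup21 had 46.5, 49.1, 38.3 and 91.7 CPM, again with replicate 4 highest. A match of letters is a description and not a measured binding site.

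Spread between the 4 libraries was measured as the SD of log2 CPM (log2 with a prior count of 2). Over the 10947 expressed genes the median SD was 0.150, which corresponds to 10.9%. The 5th and 95th percentiles were 0.046 and 0.489. An SD above 0.5 was reached by 511 genes (4.67%) and an SD above 1 by 40. With 4 libraries a single SD is known only loosely: its 95% interval under normal error runs from 0.566 to 3.73 times the estimate. Counting error was tested per gene with a Pearson chi-square on 3 degrees of freedom, adjusted by Benjamini-Hochberg over all expressed genes. Of the 10947 genes, 7774 (71%) varied beyond counting error at an adjusted p of 0.05. The share depended on level, from 57.9% of genes at 5 to 20 CPM to 76.6% at 20 to 100 CPM, 95% at 100 to 1000 CPM and 100% above that. Being called is thus the common state of an expressed gene, and most of all of an abundant one.

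**Figure D3:**
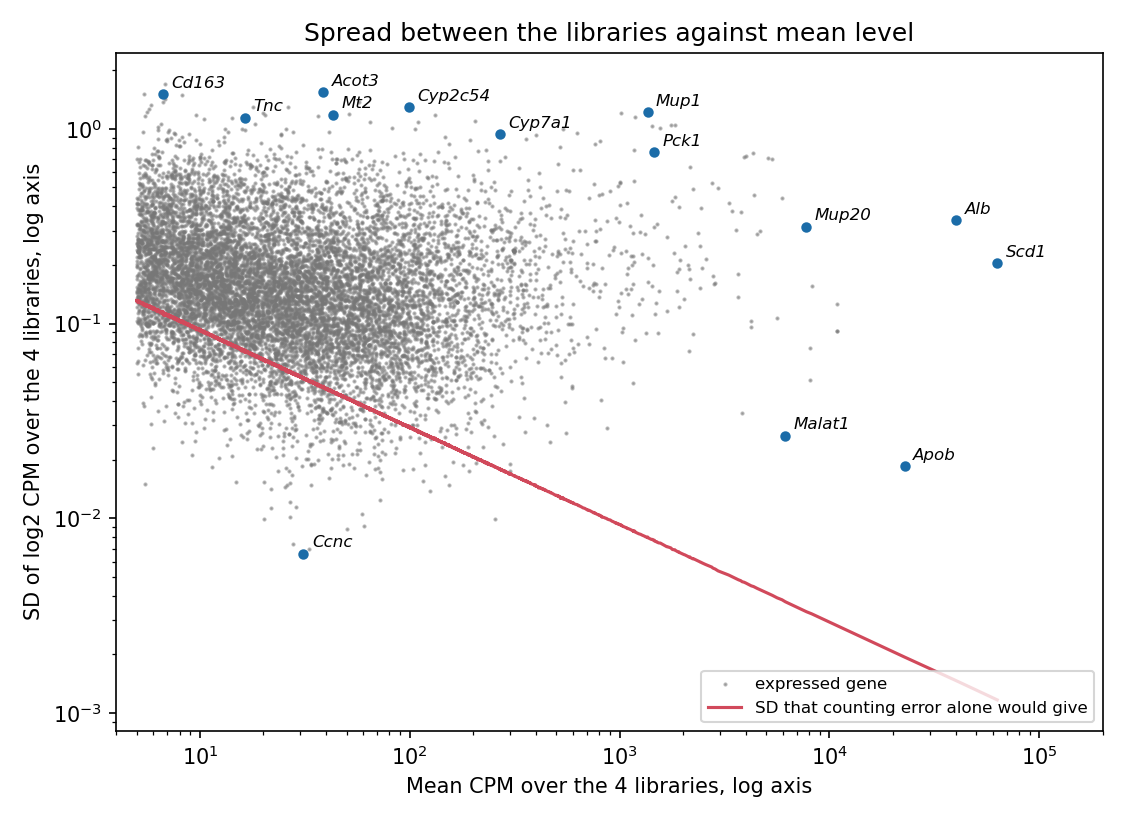
SD of log2 CPM over the 4 libraries (y axis, log scale) against mean CPM (x axis, log scale) for 10947 expressed genes, with the SD that counting error alone would give as a line. Apob and Malat1 lie well below Alb and Scd1, and Mup1, Cyp2c54 and Acot3 lie along the upper edge.

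Abundant genes were not the steadiest. Above 1000 CPM the median SD of 113 genes was 0.211, against 0.128 at 20 to 100 CPM. Apob had 22810.2, 23096, 22408 and 22916 CPM and an SD of 0.018, and was the only one of the 50 least variable genes that varied beyond counting error. Alb had 36399.9, 43901, 29623 and 51173 CPM and an SD of 0.34. Pairs of libraries differed by a median of 0.126 log2 (replicates 1 and 2) and 0.127 (replicates 2 and 4) up to 0.231 (replicates 3 and 4). Replicates 3 and 4 differed by more than 2-fold at 509 expressed genes, replicates 1 and 2 at 79.

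The most variable genes fell mainly to replicates 3 and 4. Of the 50 genes with the largest SD, which ran down to 0.96, replicate 3 was highest for 27 and replicate 4 for 19, and replicate 4 was lowest for 23. By library totals the counts were 27, 18 and 23. Over all expressed genes, replicates 1 to 4 were highest for 19.3%, 17.97%, 28.9% and 33.9% and lowest for 18.0%, 18.4%, 36.4% and 27.2%. By library totals they were highest for 26.99%, 15.2%, 46.95% and 10.9% and lowest for 8.70%, 14.5%, 17.4% and 59.4%. By totals, 23 of 50 lowest in replicate 4 is thus a smaller share than that of all expressed genes. Counts of members highest or lowest in a library, here and in the lists that follow, stand against these shares. The 50 included 7 major urinary proteins and 5 cytochromes P450. All 50 varied beyond counting error, beside 71% of all expressed genes, and since they were chosen by their spread this is a description only. A predicted gene, Gm35546, had the largest SD of all, 1.70, at 5.03, 2.94, 18.3 and 0.995 CPM. The genes at rank 50 and 51, Mybl1 and Fam83a, had an SD of 0.96 and 0.96.

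**Figure D4:**
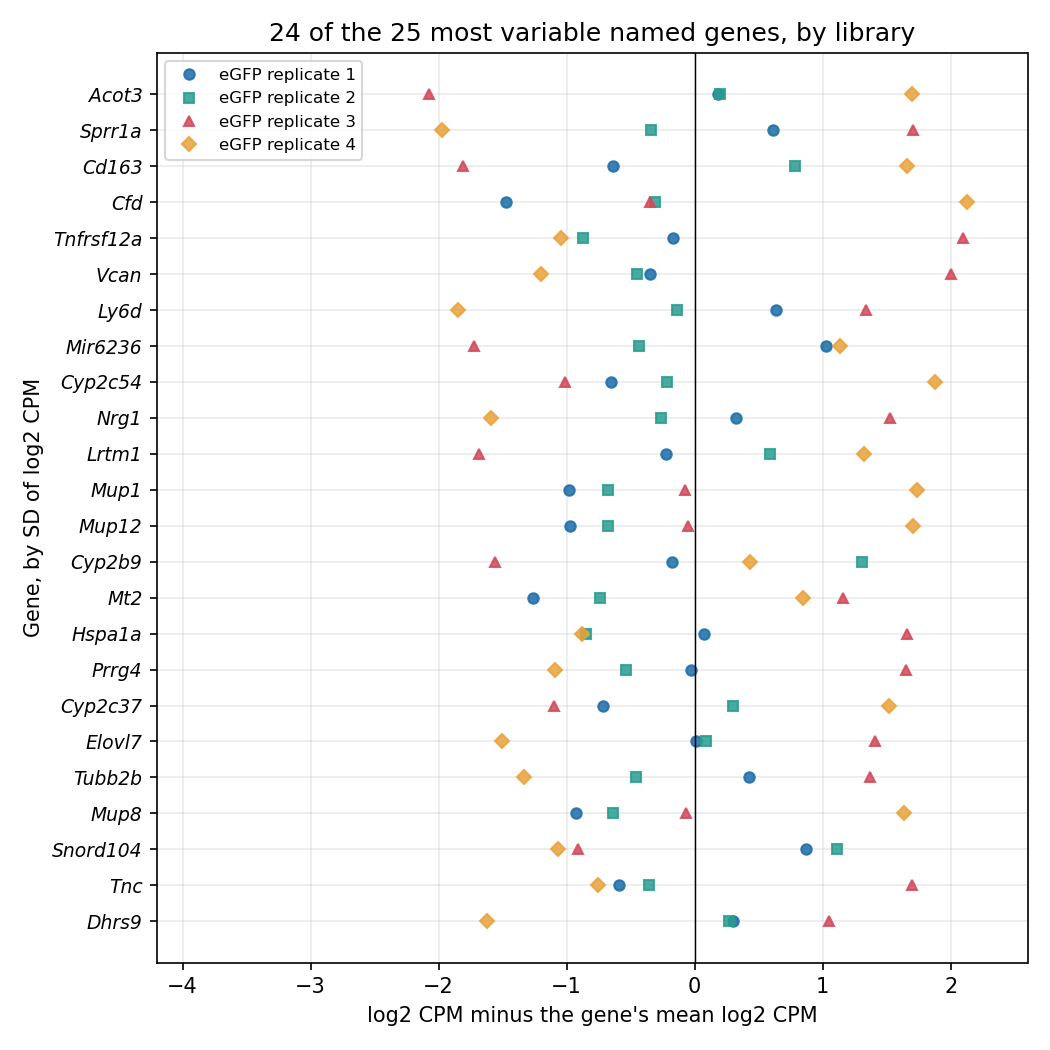
Level of 24 of the 25 most variable named genes in each library as log2 CPM minus the gene's mean log2 CPM (x axis), 1 marker per library, ordered by SD (y axis). Markers of replicates 3 and 4 lie at opposite ends for most of the genes, for example Acot3 with 6.41 and 87.3 CPM.

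Among lipid and drug enzymes, the largest spread was that of Acot3, a peroxisomal acyl-CoA thioesterase, with 30.5, 30.9, 6.41 and 87.3 CPM and an SD of 1.55. Replicate 4 was 13.6 times replicate 3, and replicates 1 and 2 lay together between them. Cyp2c54 had 44.5, 60.4, 34.7 and 257 CPM and Cyp2c37 62.2, 126, 47.8 and 294 CPM, both highest in replicate 4 and lowest in replicate 3. Cyp2b9, a P450 known to be higher in female liver, had 14, 39.3, 5.37 and 21.3 CPM, with replicate 2 highest. Cyp4a14, a fatty acid omega-hydroxylase induced through PPARA, had 317, 327, 75.7 and 102 CPM: here replicates 1 and 2 were high and replicates 3 and 4 low. Dhrs9, a retinol dehydrogenase, had 10.7, 10.4, 17.9 and 2.81 CPM, and Elovl7, a fatty acid elongase, 4.33, 4.56, 11.4 and 1.51 CPM.

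Across the 60 expressed cytochromes P450, 37 were highest in replicate 4 and 41 lowest in replicate 3. By library totals both counts were 32. The median SD was 0.43 (0.29 without replicate 4), 20 had an SD above 0.5, beside 4.67% of all expressed genes, and 59 varied beyond counting error, beside 71%. Carboxylesterases, which hydrolyse esters and drugs, leaned the same way: 10 of 12 were highest in replicate 4 and 10 lowest in replicate 3, or 7 and 9 by library totals.

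Of the most variable named genes, several were highest in replicate 3. Tnc (tenascin C, a matrix glycoprotein) had 8.22, 9.68, 40.2 and 7.31 CPM, and Vcan (versican, a matrix proteoglycan) had 3.52, 3.28, 18 and 1.95 CPM. Replicate 3 stood far above the other 3 for both. Tnfrsf12a, the receptor for TWEAK, had 3.88, 2.39, 18.7 and 2.12 CPM. Nrg1, a ligand of ErbB receptors, had 24.8, 16.5, 57 and 6.57 CPM. In these 4 genes replicate 4 was lowest and replicate 3 highest under either scaling. The tubulin gene Tubb2b had 38.6, 20.9, 74.4 and 11.4 CPM and Ly6d, a GPI-anchored surface protein, 67.5, 39.4, 109.9 and 12.1 CPM, also with replicate 3 highest and replicate 4 lowest. Sprr1a, a small proline-rich protein of stressed epithelia, had 5.68, 2.94, 12.1 and 0.951 CPM, near the minimum of 5 CPM. Prrg4, a membrane protein with a Gla domain, had 15.3, 10.7, 48.7 and 7.31 CPM, again with replicate 3 highest, while Lrtm1, a leucine-rich repeat protein, had 3.8, 6.69, 1.38 and 11.1 CPM, with replicate 4 highest. The row of Mir6236, a microRNA gene, had 9.08, 3.28, 1.34 and 9.77 CPM, highest in replicate 4 under TMM and in replicate 1 by library totals.

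The heat shock gene Hspa1a, an inducible HSP70, had 7.61, 4.01, 22.8 and 3.94 CPM, and its neighbour Hspa1b had 12.4, 7.5, 34.7 and 8.52 CPM. Replicate 3 was highest and replicates 2 and 4 were low for both. The transcripts of these genes were not compared, so how reads were divided between them is uncertain. The promoters of both genes are printed because these windows are near-copies. Each is the RefSeq window of 300 bases on GRCm38.p6, minus strand, with GAANNTTC, the core of 2 facing heat shock units, in capitals.
Hspa1a chr17:34972107-34972406: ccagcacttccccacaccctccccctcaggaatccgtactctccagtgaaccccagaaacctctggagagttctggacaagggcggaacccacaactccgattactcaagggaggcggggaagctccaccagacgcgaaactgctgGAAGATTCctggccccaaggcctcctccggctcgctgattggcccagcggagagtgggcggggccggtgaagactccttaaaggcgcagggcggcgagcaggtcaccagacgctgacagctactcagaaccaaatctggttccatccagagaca
Hspa1b chr17:34959189-34959488: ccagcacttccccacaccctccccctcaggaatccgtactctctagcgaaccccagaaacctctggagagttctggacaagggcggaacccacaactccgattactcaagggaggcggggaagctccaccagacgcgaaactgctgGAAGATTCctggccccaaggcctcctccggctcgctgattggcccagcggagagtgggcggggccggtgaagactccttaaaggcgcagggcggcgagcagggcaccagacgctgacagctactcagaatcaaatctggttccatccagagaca
Of 300 bases 296 were identical, which is 98.7%. GAANNTTC, which reads the same on both strands, stood in 7.86% of all windows.

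The metallothioneins Mt1 and Mt2, small proteins that bind zinc and copper and respond to metals and glucocorticoids, shared an order of libraries. Mt1 had 42.6, 59.4, 169 and 155 CPM and Mt2 14.1, 20.3, 76.1 and 61.1 CPM. Replicates 3 and 4 were both high and replicates 1 and 2 both low, with no overlap. Their promoters (RefSeq, GRCm38.p6, plus strand) are shown with the letters TGCACNC or TGCGCNC, the core of metal response elements, in capitals on either strand.
Mt1 chr8:94178839-94179138: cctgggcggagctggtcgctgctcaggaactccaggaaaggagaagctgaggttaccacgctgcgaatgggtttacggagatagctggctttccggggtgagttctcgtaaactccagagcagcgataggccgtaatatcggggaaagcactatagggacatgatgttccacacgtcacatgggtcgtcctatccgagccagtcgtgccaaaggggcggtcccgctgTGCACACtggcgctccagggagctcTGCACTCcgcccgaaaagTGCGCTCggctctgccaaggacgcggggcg
Mt2 chr8:94172368-94172667: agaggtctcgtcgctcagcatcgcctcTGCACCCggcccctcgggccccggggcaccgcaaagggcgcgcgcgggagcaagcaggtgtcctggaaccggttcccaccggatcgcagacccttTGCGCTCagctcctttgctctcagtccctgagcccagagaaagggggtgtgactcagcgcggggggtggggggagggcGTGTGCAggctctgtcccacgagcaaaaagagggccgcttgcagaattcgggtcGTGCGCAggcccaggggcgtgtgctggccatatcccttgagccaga
The Mt1 window held 3 matches and the Mt2 window 4. At least 1 match stood in 25.7% of all windows, 3 or more in 1.97% and 4 or more in 0.517%. No binding was measured in these livers.

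Recruited macrophage genes were among the most variable lists, together with fasting and sex-biased genes. Recruited and lipid-associated macrophages were represented by 21 markers. Of these, 17 were expressed, and their median SD was 0.57 against 0.150 over all expressed genes. Of the 17, 11 had an SD above 0.5, 11 were highest in replicate 3 and 5 in replicate 1, and 13 were lowest in replicate 4. By library totals 11 and 5 were again highest in replicates 3 and 1, and 14 lowest in replicate 4. The summed level of the list was 757, 528, 848 and 385 CPM. Lgals3 (galectin 3) had 26.3, 15.1, 51 and 10.4 CPM, Mmp12 (macrophage elastase) 41.5, 29.1, 78.2 and 15.9 CPM, and Itgam (the integrin CD11b) 8.96, 3.96, 13.9 and 4.84 CPM. All 17 varied beyond counting error, beside 71% of all expressed genes. Without replicate 4 the median SD was 0.41. In bulk RNA, fewer cells of a type and less RNA per cell cannot be told apart.

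Kupffer cell markers, of the resident macrophages, were summed over 15 genes to 955, 777, 949.6 and 931 CPM, with replicate 2 lowest. The list holds C6, which is also a complement gene and had 159.5, 138, 202 and 242 CPM. Without C6 the sum was 795, 639, 748 and 690 CPM, with replicate 1 highest and replicate 2 lowest, or replicate 4 lowest by library totals. Replicates 1 and 3 were the higher libraries with and without C6, as for the recruited macrophage list. Of the 14 expressed members, 5 were highest in replicate 1, 4 in replicate 3 and 5 in replicate 4. Cd163, a haemoglobin scavenger receptor, had 2.94, 7.89, 1.3 and 14.5 CPM, and Timd4, a receptor for apoptotic cells, 4.7, 5.84, 2.8 and 10.8 CPM. Both were highest in replicate 4 and lowest in replicate 3, the reverse of Lgals3 and Mmp12. C1qb, a complement component made by macrophages, had 119, 67, 91.7 and 65.1 CPM and Cd5l, a secreted macrophage protein, 101, 50.6, 86.3 and 61.3 CPM, both highest in replicate 1.

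Matrix and stellate genes were steadier than macrophage genes apart from a few members. Of 33 fibrosis and matrix genes 29 were expressed, with a median SD of 0.25 (0.16 without replicate 4). Fn1 (fibronectin), the most abundant, had 2258, 2450.4, 2207 and 2785 CPM, and Dcn (decorin) 266, 244, 228 and 215 CPM. Thbs1 (thrombospondin 1) had 12.5, 10.4, 42.2 and 8.13 CPM and Mmp13 (a collagenase) 6.42, 4.22, 15 and 3.03 CPM, with replicate 3 highest. Replicate 4 was lowest for 24 of the 29, beside 27.2% of all expressed genes, or for 27 by library totals, beside 59.4%. Replicate 3 was highest for 12, or 16 by totals. Stellate cell markers had a summed level of 573, 497, 496 and 504 CPM, with Reln (reelin) at 228, 191, 185 and 196 CPM and Rgs5, a pericyte regulator of G protein signalling, at 112, 91.6, 108 and 82.4 CPM.

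Other cell types differed in spread. Endothelial markers had a median SD of 0.14, and Stab2, a sinusoidal scavenger receptor, had 179.8, 163, 166 and 159.6 CPM. Lyve1, a hyaluronan receptor, was an exception with 36.4, 30.1, 33.4 and 17.9 CPM. None of the 19 T and NK cell markers reached 5 CPM, with a summed level of 20.2, 8.65, 21.8 and 10.3 CPM. Of 13 B and plasma cell markers 2 were expressed, and Ighm had 17.3, 9.59, 10.3 and 8.99 CPM. Of 13 neutrophil markers 1 was expressed, Csf3r with 8.59, 6.22, 13.3 and 5.97 CPM. Cholangiocyte markers had a median SD of 0.41 over 6 expressed members, or 0.20 without replicate 3 or replicate 4. Of the 6, 3 were highest in replicate 2, 2 in replicate 3 and 1 in replicate 4, or 1, 3 and 0 by library totals with 2 in replicate 1. Krt8 and Krt18, keratins that hepatocytes also express, had 169, 157, 335 and 135 CPM and 116, 103, 211 and 83 CPM, with replicate 3 highest. Spp1 (osteopontin) had 62, 72.6, 65.5 and 28.3 CPM and Aqp1, a water channel, 75.6, 78.5, 69.5 and 82.8 CPM. Of 12 pancreatic acinar markers 8 were at 0 in all 4 libraries, and none was expressed. Cfd (adipsin), an adipocyte product, had 1.88, 4.22, 4.11 and 22.8 CPM, with replicate 4 far above the rest. Fabp4, another gene of fat cells, had 34.1, 20.2, 31.3 and 18.2 CPM, with replicate 4 lowest. The 11 listed adipocyte markers summed to 1443, 1355, 1206 and 1689 CPM. Of the 7 expressed, 3 were highest in replicate 3, 3 in replicate 4 and 1 in replicate 1, under either scaling. The part of other tissue in the Cfd level was not tested.

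Portal hepatocyte genes were split by library. Pck1, the rate-limiting enzyme of gluconeogenesis, had 1076, 2211, 701 and 1867 CPM. Hal and Sds, which break down histidine and serine, had 93.9, 224, 73.4 and 220.4 CPM and 53.1, 103, 28.8 and 72.1 CPM. Replicates 2 and 4 were above replicates 1 and 3 in all 3 genes. Cps1, the first enzyme of the urea cycle, had 1971, 3476, 1849 and 3706 CPM and Ass1, a later one, 1377, 2492, 1361 and 2136 CPM, with replicates 2 and 4 again the higher ones. The list of 15 had a median SD of 0.44, with 6 members above 0.5, and all 15 varied beyond counting error, as did 71% of all expressed genes and 95% of those at 100 to 1000 CPM. Replicate 3 was lowest for 10 of the 15 (9 by library totals).

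Central hepatocyte genes stood highest in replicate 4, for 13 of 15, or 11 by library totals. Cyp2e1 had 4939.6, 5709.7, 4356 and 8763 CPM, Oat (ornithine aminotransferase) 426, 405, 309 and 903 CPM, Cyp1a2 109, 103, 142 and 301 CPM and Slc1a2, a glutamate transporter, 349.6, 301, 237 and 582 CPM. Glul, the glutamine synthetase of the innermost central hepatocytes, had 1432, 1034, 959 and 1610.4 CPM, in which replicate 4 was highest under TMM and replicate 1 by library totals. The median SD was 0.35. Replicate 3 was lowest for 11 of the 15, or 9 by library totals.

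Fasting and glucocorticoid genes had a median SD of 0.55, with 11 of 19 expressed members above 0.5. Without replicate 3 the median was 0.35. No single order held: replicate 2 was highest for 8, replicate 3 for 7, and replicates 1 and 4 for 2 each. Replicate 3 was also lowest for 10 and replicate 4 for 7, under either scaling. Cdkn1a (p21, a cell cycle inhibitor) had 16.4, 12.5, 18.2 and 4.89 CPM and Fgf21, a hormone of the fasted and stressed liver, 10.9, 9.51, 23.3 and 5.75 CPM, both highest in replicate 3. Cpt1a, which admits fatty acids to mitochondria, had 737, 657, 562 and 856 CPM and an SD of 0.26. Of the 18 expressed clock genes, with a median SD of 0.42, 11 were highest in replicate 4 and 10 lowest in replicate 3. By library totals these counts were 10 and 9. Among them, Usp2 had 16.4, 25.2, 9.75 and 46 CPM and Bhlhe41 8.06, 6.31, 16.3 and 14.5 CPM, while Nr1d2 (REV-ERB beta) had 150.2, 166, 175 and 197 CPM. Collection times are not given in the labels. Of the 14 expressed immediate early genes, 9 were highest in replicate 3, among them Atf3 with 8.79, 5.93, 13.7 and 3.24 CPM, Klf6 with 46.3, 41.2, 90.8 and 24.1 CPM and Myc with 10.1, 5.71, 18.1 and 6.57 CPM.

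**Figure D5:**
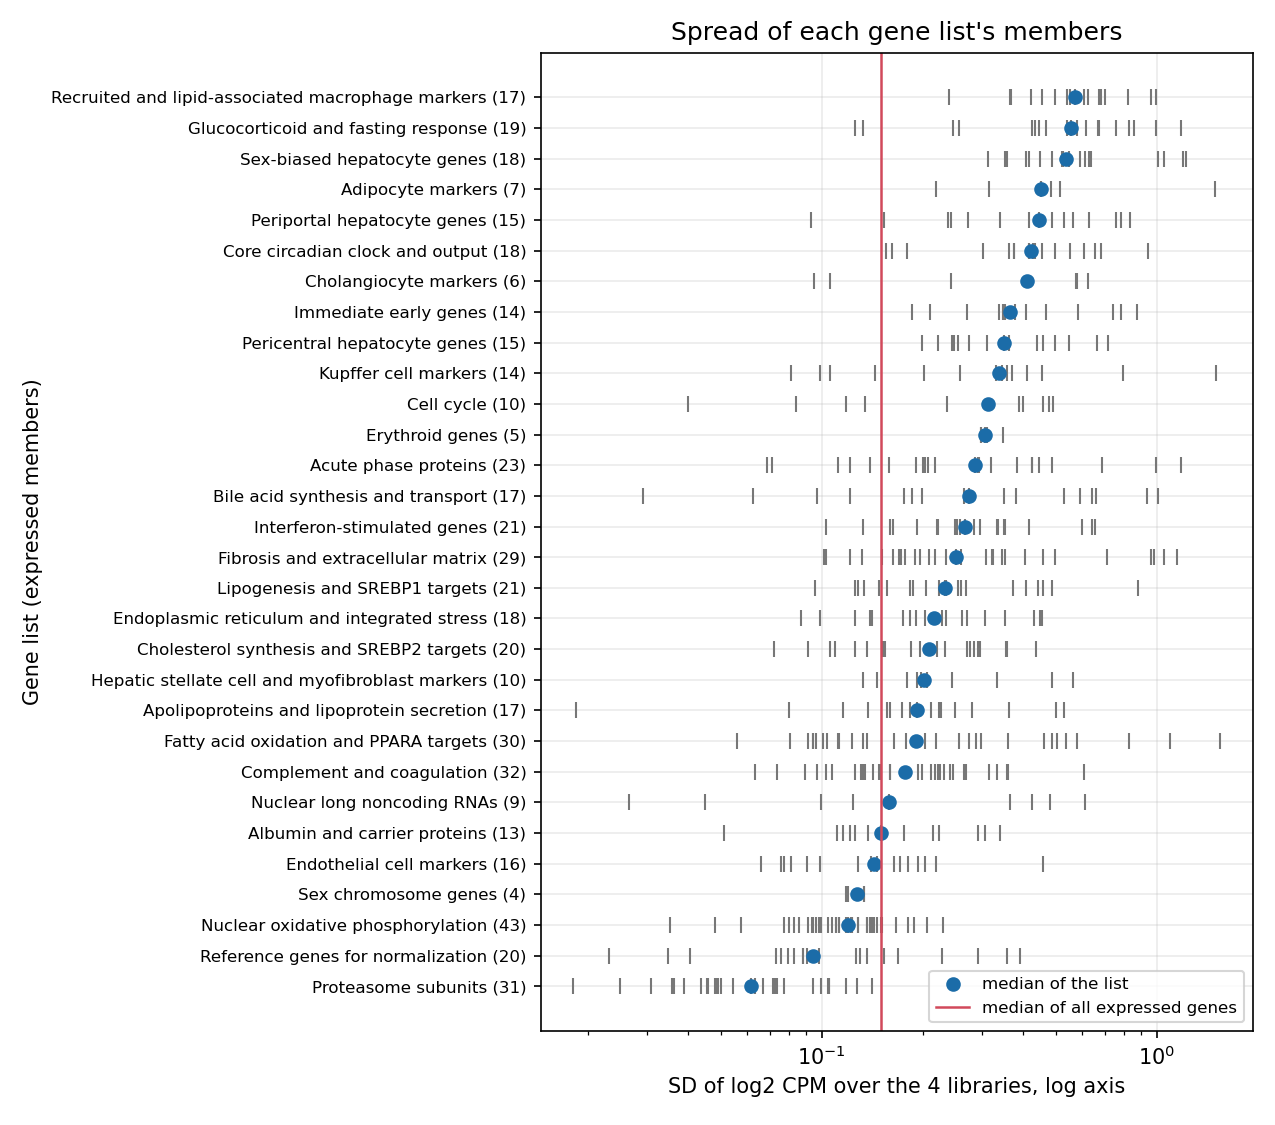
SD of log2 CPM (x axis, log scale) of the expressed members (grey ticks) and their median (blue dots) for 30 gene lists with at least 4 expressed members (y axis, number in brackets), with the median of all expressed genes, 0.150, as a red line. Macrophage, fasting and sex-biased lists lie at the top and proteasome subunits at the bottom, with a median of 0.062.

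Lipid genes were of middling spread. Of 22 lipogenic genes 21 were expressed, and replicate 3 was lowest for 17 of them under TMM and for 10 by library totals. Scd1 had 64069.8, 70788, 51005 and 66138 CPM, which the share of counts above reflects. Thrsp, a regulator of lipogenesis, had 164, 216, 74.8 and 315 CPM, and Elovl6, a fatty acid elongase, 271, 259, 151 and 335 CPM, with replicate 3 lowest in both under either scaling. Cholesterol synthesis genes had a median SD of 0.21. Fatty acid oxidation genes had a median SD of 0.19, and the lipid droplet protein Plin2 had 838, 608, 1215 and 636 CPM, with replicate 3 highest. Tm6sf2, which takes part in lipoprotein lipidation, had 20.9, 20.7, 10.1 and 21.7 CPM: replicates 1, 2 and 4 lay together and replicate 3 far below.

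In the bile acid list a single library stood apart for several genes. Cyp7a1, the rate-limiting enzyme of bile acid synthesis, had 324, 310.3, 89.5 and 348 CPM, so that replicates 1, 2 and 4 lay close together and replicate 3 far below. Slco1a1, an organic anion transporter that is higher in males, had 55.3, 39.5, 48.7 and 186 CPM, with replicate 4 apart from the others. Nr0b2 (SHP), a repressor of bile acid synthesis, had 10.9, 15.9, 7.6 and 21.2 CPM. The canalicular transporter Abcc2 had 854, 877, 871 and 897 CPM, an SD of 0.029, and the bile salt export pump Abcb11 had 571, 729, 557 and 613 CPM, an SD of 0.18.

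Sex-biased hepatocyte genes, which follow the pattern of growth hormone release, had a median SD of 0.53, with 11 of 18 expressed members above 0.5. Replicate 4 was highest for 12, or 11 by library totals, and without it the median was 0.32. This list shares Mup1, Mup3, Mup7, Mup20 and Mup21 with the family described above.

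Interferon and cell cycle genes were highest mainly in replicate 1. Of 21 expressed interferon-stimulated genes, 14 were highest in replicate 1 and 14 lowest in replicate 2, or 14 and 10 by library totals, when replicate 4 was lowest for another 10. Gbp2 had 26.6, 10.3, 20.8 and 11.7 CPM and Cxcl9 29.3, 13.9, 24.7 and 12.6 CPM. Of 10 expressed cell cycle genes, 7 were highest in replicate 1, or 9 by library totals. Mki67, a marker of dividing cells, had 33.1, 20.7, 20.4 and 14.8 CPM and Top2a, a topoisomerase of dividing cells, 10.3, 5.5, 5.79 and 4.71 CPM. Pcna, a replication clamp, had 17.7, 16.8, 16.6 and 17.2 CPM and did not vary beyond counting error.

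Housekeeping complexes were steady, to a degree that depends on the scaling. All 31 proteasome subunits were expressed, with a median SD of 0.062, and 15 (48.4%) varied beyond counting error, beside 71% of all expressed genes. By library totals the median was 0.10, with 23 highest in replicate 3 and 26 lowest in replicate 4. Psmd1 had 149, 153, 158 and 150.2 CPM. The 80 expressed cytosolic ribosomal proteins had a median SD of 0.062, and 45 varied beyond counting error. By library totals 76 of the 80 were lowest in replicate 4. Oxidative phosphorylation genes had a median SD of 0.12, or 0.056 by library totals. Under TMM, 41 of 43 (95.3%) varied beyond counting error, beside 71% of all expressed genes. That share was 76.6% for genes at 20 to 100 CPM and 95% at 100 to 1000 CPM. Relative to the 500 genes nearest in level, the members had a median spread of 0.92 times. Of the 43 on that list, 34 were highest in replicate 4 and 39 lowest in replicate 3 under TMM, but 7 and 16 by library totals, so the order of libraries for this list depends on the scaling.

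Genes commonly used as references for normalisation were unequal. Their median SD was 0.094 over 20 genes. Eef1a1 (a translation elongation factor) had 3904, 3933, 3766 and 3754 CPM and B2m (beta-2 microglobulin) 2354, 2043, 2279 and 2243 CPM. Tubb5 (a tubulin) had 87.4, 67.7, 98.4 and 56.9 CPM with an SD of 0.36, and Actb (beta actin) 1275, 941, 1442 and 994 CPM with 0.29. Both were therefore more spread than the median expressed gene. Tubb5 and Actb were high in replicates 1 and 3.

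Stress and acute phase genes showed a further pattern. Hamp (hepcidin, the iron hormone) had 136, 338, 155 and 317 CPM, with replicates 2 and 4 above the other 2. Fga and Fgg, fibrinogen chains, had 2401, 3129.9, 2840.4 and 2841 CPM and 1793, 2436, 2082 and 2277 CPM, lowest in replicate 1. Serpina3k, a protease inhibitor, had 1650.2, 1948, 1839.6 and 3506 CPM. Of 23 expressed acute phase genes, 15 were lowest in replicate 1 and 7 in replicate 4, or 11 in each by library totals. The chaperones Hspa5 and Hsp90b1 of the endoplasmic reticulum had 229, 323, 322 and 218 CPM and 615, 849, 676 and 651 CPM, with replicate 2 highest under TMM, and replicate 3 highest for Hspa5 by library totals. Atf5, a factor of the integrated stress response, had 134, 120.3, 127 and 67.9 CPM, with replicate 4 apart.

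The least variable genes could not be told apart by their spread. Of the 50 with the smallest SD, 48 had an SD below the one that counting error alone would give, and 1, Apob, varied beyond it. Ccnc (cyclin C, part of the Mediator kinase module) had 31.3, 31, 31.1 and 31.3 CPM, an SD of 0.0066. Sephs1 (selenophosphate synthetase 1) had 33.4, 33.3, 33 and 33.3 CPM. Ptprf, a receptor tyrosine phosphatase and the most abundant of the named 15, had 258, 258, 254 and 255 CPM. Rps25 and Rps27l, a ribosomal protein and a paralogue of one, had 125, 124, 126 and 124 CPM and 71.8, 71.5, 71.9 and 73 CPM. The deacetylase Sirt1 had 21.4, 21.8, 21.9 and 21.8 CPM, the helicase Dhx36 58.6, 59.5, 59.4 and 58.9 CPM, the deadenylase subunit Cnot11 21.7, 22.1, 21.8 and 21.9 CPM and the interferon signalling factor Irf9 26.9, 27.3, 26.7 and 26.9 CPM. Dop1a, Zfp266, Zfp568, Fbxw8 and Opa3 had an SD from 0.0089 to 0.011. The SD of the genes at rank 50 and 51 from the bottom was 0.019 for both. By library totals none of the 50 stayed among the 50 least variable, so this list describes TMM-scaled levels only.

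Over the 34 lists, 32 had expressed members, and 27 of the 32 had a median SD above that of all expressed genes. The lists were chosen for liver biology with earlier results of these data known, so this count is a description of the lists and not of the liver.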

How the data were processed

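The authors deposited 1 table of unnormalised read counts with 40838 rows named by NCBI gene number. Per the labels' protocols, the authors used TRIzol for extraction, FastSelect HMR against ribosomal RNA, a Kapa stranded kit, and 101 cycles from 1 end on a NovaSeq 6000. The submitters' processing notes name bcl2fastq 2.20, DESeq2 and GRCm39. For the aligner, the counter and its strand setting, nothing is given in the sources used here. Columns were matched to samples by the code in each title, and 0 columns were left over.

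Symbols and gene types were taken from RefSeq (GRCm38.p6), which matched 39397 rows with 99.5% of the counts. Promoter windows are RefSeq's on that build, and no other coordinates are given because the builds differ. Exon lengths (GENCODE, GRCm38) covered 21029 of 21734 protein-coding rows, with 99.8% of their counts. CPM used TMM from edgeR 4.0.16 (R 4.3.3), fitted on the 4 control libraries, and TPM was computed here from counts per kilobase. edgeR's common biological coefficient of variation was 17.6%. Tables were made with pandas 2.3.3, numpy 2.4.6 and scipy 1.17.1. The chi-square step was tested on simulated data. Intervals cover counting error only, and 3 counts, the limit that a count of 0 allows, are 0.117 to 0.128 CPM. Identical counts in all 4 libraries were found for 12 expressed rows in 6 pairs.

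Named genes were the 20 leading by share, 15 by TPM, 5 per noncoding type, the 25 most and 15 least variable without predicted or clone symbols, and up to 3 most abundant and 3 most variable per list. Lpcat3, Xist, Hspa1b, Mup21, Nr0b2, Fabp4, Mybl1, Fam83a and Gm35546 lie outside this rule and were named after their values were seen. Some genes that the rule names are not reported here. Members and lists were chosen with earlier results of these data known. Alternatives covered scaling (library totals, DESeq2 1.42.0 size factors), the CPM minimum, the prior count, the measure of spread, the total behind shares, and leaving out each library.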

Additional observations from a re-analysis of the deposited data

Results flagged for a closer look

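In groups of 4 libraries, a value was marked when the gap between the highest or lowest library and its nearest neighbour took up more of the whole range than Dixon's 95% limit allows. Gaps were taken on log2 CPM for genes and on the linear scale for classes and summed lists. Class shares are of unscaled library totals, while genes and summed lists are in TMM-scaled CPM. Gaps under the other scaling were not taken, so a mark may depend on the scaling. Chance marks about 1 in 20 such groups. Here, of 267 named genes, classes and lists, 13 (4.87%) were marked, and of all 10947 expressed genes 529 (4.83%).

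Replicate 3 stood apart for 5 of them. Tm6sf2, with 20.9, 20.7, 10.1 and 21.7 CPM, had a gap of 0.936 of its range, and Cyp7a1, with 324, 310.3, 89.5 and 348 CPM, 0.915, both low in replicate 3. Tnc, with 8.22, 9.68, 40.2 and 7.31 CPM, had 0.836, and the haemoglobin class, at 0.0669% in replicate 3, had 0.843 (0.805 on the log2 scale, under the limit). Zfp568 had 0.878, but with 20.3, 20.2, 19.99 and 20.3 CPM the whole range was within counting error.

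Replicate 4 stood apart for 5. Mup3, with 1521, 1745, 1537 and 3834 CPM, had 0.851 and was high there. Atf5 had 0.845, Spp1 (osteopontin, 62, 72.6, 65.5 and 28.3 CPM) 0.832 and Plin4 (a lipid droplet protein, 135, 139.7, 151 and 73.1 CPM) 0.840, all low in replicate 4. On linear CPM these 3 had 0.797, 0.760 and 0.788, under the limit. The collagen class, at 0.109% in replicate 4, had 0.899. That gap is on library totals, by which replicate 4 was lowest for 59.4% of all expressed genes, beside 27.2% under TMM.

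Replicate 1 stood apart for the summed cell cycle list (221, 161, 163 and 169.95 CPM, 0.847, or 0.825 on the log2 scale, under the limit) and the summed stellate cell list (573, 497, 496 and 504 CPM, 0.900), both high there, and replicate 2 for the summed Kupffer cell list (955, 777, 949.6 and 931 CPM, 0.868), low there. By library totals the Kupffer cell list, with C6 still in it, summed to 993, 766, 1027 and 839 CPM. Replicate 3 was then highest and replicate 2 lowest. Under TMM and without C6, which is also a complement gene, the gap was 0.324, under the limit. The sum without C6 was chosen after seeing the data. The marks of these summed lists hold for TMM-scaled levels, and no gap by library totals was taken for them.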

How the results depend on the processing

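The number of genes holding 50% of the counts, 266, was 108 by counts per kilobase and ran from 244 to 295 when 1 library was left out. The median SD, 0.150, was 0.175 by library totals, 0.181 at a minimum of 1 CPM and 0.132 at 20 CPM, and ran from 0.121 (without replicate 3) to 0.157 without 1 library. Genes beyond counting error, 7774, were 5054 at a minimum of 20 CPM, where fewer genes were tested, and 5834 to 7391 without 1 library. Of the 50 most variable genes, 19 remained at a minimum of 1 CPM and 23 at 20 CPM, where the genes eligible differ, and 24 (without replicate 3), 28 (without replicate 4) to 44 without 1 library. Of the 50 least variable genes, 0 remained by library totals and 12 by edgeR's tagwise dispersion, and 10 to 13 without 1 library; the cause was not tested. Lists above the median SD, 27, ran from 25 to 26 without 1 library, and the share of secreted proteins, 22.2%, from 21.0% to 22.8%. No other alternative moved these results by over 1.5 times or by more than the spread between libraries. Among single classes, the share of apolipoproteins became 4.64% of protein-coding counts, and that of oxidative phosphorylation subunits 0.616% of protein-coding counts and 0.589% without small structural RNA. No paired analysis was possible because there is only 1 group. Depth limits the least variable genes most: at 5 to 20 CPM counting error alone gives a median SD of 0.092. Major urinary proteins took 3.60% without replicate 4.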
